A study of Mus musculus with 12 samples.

Results

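The E2F family of transcription factors, their dimer partner DP1 (gene Tfdp1) and the retinoblastoma gene Rb1 were followed through 4T1 tumours of restrained and unrestrained mice. The 10 genes (E2f1 to E2f8, Tfdp1 and Rb1) were taken by their symbols from the mRNA table of 35453 rows, and all 10 were among the 14098 genes that passed the filter of a mean log2 value of at least 4. They had been picked with the stress against control difference of these same libraries known, so their own differences are given below as a description, without a test.

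The tumours grew from 4T1, a mouse mammary carcinoma cell line that metastasises spontaneously, in Balb/c mice. In the stress group the tumour-bearing mice were restrained for 2 hours a day on 28 consecutive days, and in the control group they were left untreated. All tumours were labelled as taken 35 days post inoculation, and each group had 3 libraries of mRNA and 3 of miRNA. No label ties the libraries to separate animals, so the spread between libraries may in part be technical.

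E2F proteins control the genes by which a cell enters S phase. E2F1, E2F2 and E2F3 bind DNA with a DP partner and activate these genes, and they are held in check by the retinoblastoma protein until cyclin D kinases phosphorylate it. E2F4 and E2F5 work with the pocket proteins p107 and p130 as repressors in resting cells, and E2F6 represses without a pocket protein, through a Polycomb complex. E2F7 and E2F8, the atypical members, bind DNA without DP and damp the same targets late in S phase. In tumours the Rb pathway is among those most often altered.

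The deposited mRNA values are log2 values after normalization, so the depth of each mRNA library is unknown, and the median log2 value was 8.91 to 8.92 in each of the 6 libraries. All 10 epithelial markers of the 4T1 label had values, with summed levels of 15.33 to 15.48 in stress and 15.34 to 15.49 in control libraries on the log2 scale. The summed endothelial markers were lower in every stress library (12.86 to 13.04) than in every control library (13.09 to 13.28), and 10 of 10 were below 0 in their difference. The summed neutrophil markers were higher (11.33 to 12.02 in stress, 10.92 to 11.08 in control), with 7 of 9 tested markers above 0, and the summed adipocyte markers were lower (8.66 to 9.07 in stress, 9.14 to 9.89 in control), with 3 of 3 tested markers below 0. Summed skeletal muscle markers (11.36 to 12.80 in stress, 12.34 to 13.93 in control) and fibroblast markers (16.12 to 16.60 in stress, 16.45 to 17.55 in control) overlapped between the groups, with 10 of 10 and 9 of 10 markers below 0. Macrophage, T and NK cell and erythroid markers overlapped as well, and no marker was listed at 0. The part of these cell types in the differences below was not tested beyond the fit with the muscle markers given for some genes. In bulk tumour RNA, fewer cells of a type and less RNA per cell cannot be told apart.

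Levels of the 10 genes were first ordered per kilobase of transcript, as mean log2 values over the 6 libraries. The length was that of the longest annotated coding transcript, and whether the deposited values were already scaled for length is unknown. The order depends on this step. Without it, E2f4 and E2f8 were both at 11.23, and E2f1, E2f3, E2f6, E2f7 and Rb1 lay between 9.12 and 9.24. Tfdp1 (10.32) and E2f4 (10.24) were the most abundant and did not differ beyond their spread. E2f8 came next at 9.34, far above the other atypical member E2f7 at 6.78. E2f5 (8.05), E2f6 (7.85) and E2f1 (7.78) formed the middle of the order, where E2f6 and E2f1 did not differ beyond their spread. Rb1 (6.93), E2f3 (6.83) and E2f7 lay within their spread of each neighbour, and E2f2 was lowest at 5.45. On this scale, therefore, the most abundant activator was E2f1 and the most abundant repressor E2f4.

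Of the 10 genes, 9 had a lower mean in stress than in control tumours and Rb1 alone a higher one; 49.4% of all genes tested were below 0. None was called by limma at a Benjamini-Hochberg adjusted p under 0.05 on the deposited values. The background was 0.0355% of genes, 0.0213% higher and 0.0142% lower in stress. After quantile normalization, 1 of the 10 was called. The 3 stress and the 3 control libraries did not overlap for 7 of the 10 genes, 6 lower and 1 higher in stress, beside 12.3% and 12.1% of all genes (24.3% in either direction). The same 6 and 1 had an unadjusted p under 0.05, beside 9.15% and 8.26% of genes (17.4% in either direction). The median difference of the 10 was -0.14, against 0.0014 over all genes tested. Since the genes were picked on this contrast, these shares are not evidence of a family-wide change.

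**Figure D1:**
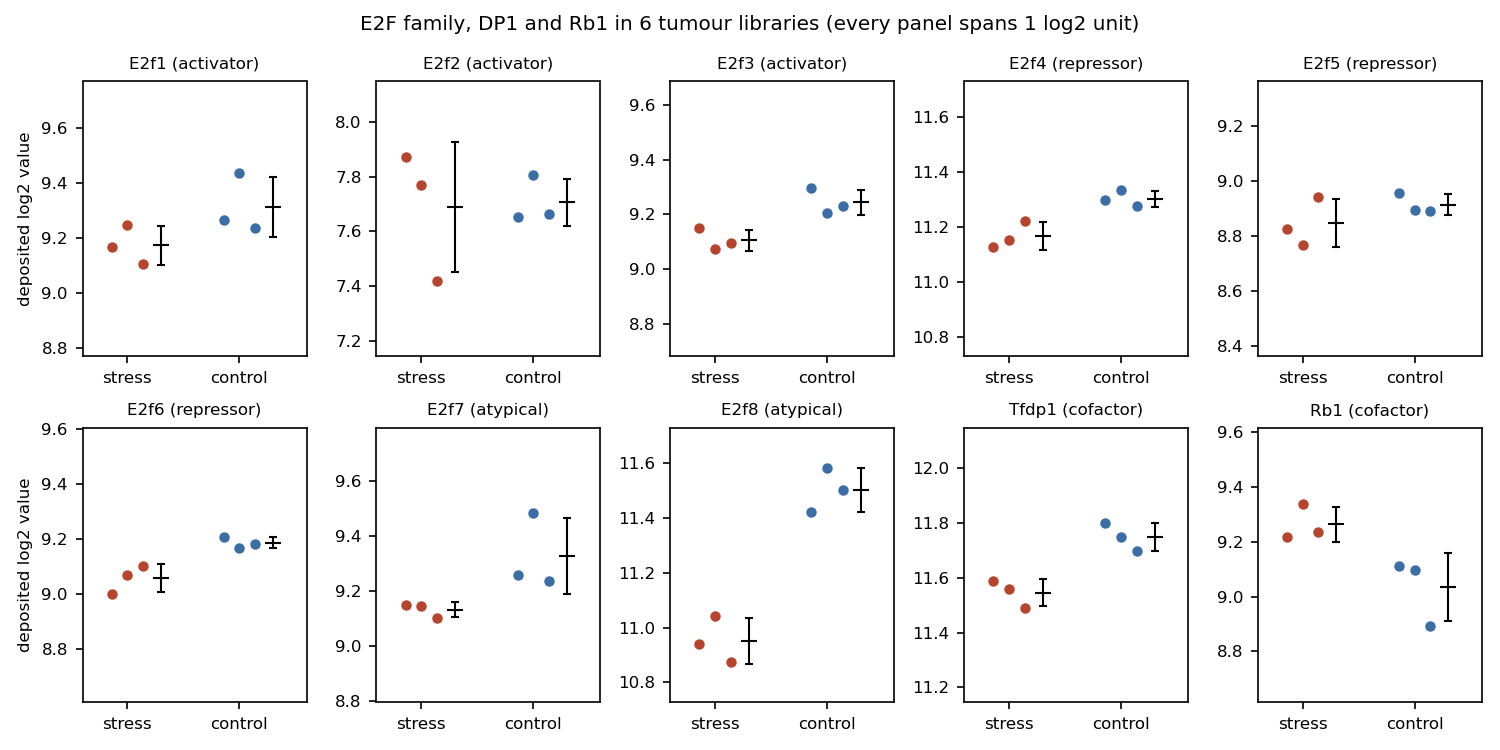
Deposited log2 values (y axis) of each gene in the 3 stress (red, left) and 3 control (blue, right) libraries, with the mean and SD as a bar at the right of each group; every panel spans 1 log2 unit. The groups are widest apart for E2f8, do not overlap for E2f3, E2f4, E2f6, E2f7, Tfdp1 and Rb1, and overlap for E2f1, E2f2 and E2f5.

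Among the activators, E2f1 (chromosome 2, 154559407 to 154569892, minus strand, GRCm38), which drives both S phase entry and apoptosis genes, had log2 values of 9.17, 9.25 and 9.10 in stress libraries, against 9.26, 9.44 and 9.24 in control libraries. The groups touched, as the highest stress value passed the lowest control value, and the difference was -0.14 ± 0.07 (limma SE, n = 3 each). Without control replicate 2, the highest library, it was -0.08, and with the muscle markers in the fit -0.08. E2f3 (chromosome 13, 29906575 to 29986063, minus strand), whose locus makes a long and a short protein that the gene-level values do not separate, had 9.15, 9.07 and 9.09 in stress libraries, against 9.29, 9.20 and 9.23 in control libraries. Here all stress libraries lay below all control libraries, at a difference of -0.14 ± 0.05. E2f2 (chromosome 4, 136172394 to 136196057, plus strand) was the most variable of the 3, with 7.87, 7.77 and 7.42 in stress libraries, against 7.65, 7.80 and 7.66 in control libraries. Its difference was -0.02 ± 0.12; without stress replicate 3, the lowest library, it was 0.12. The mean of the activators differed by -0.10 and overlapped between the groups; it was -0.04 with the muscle markers in the fit and -0.04 without stress replicate 3.

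Among the repressors, E2f4 (chromosome 8, 105297663 to 105305370, plus strand), the main E2F of resting cells, had 11.13, 11.15 and 11.22 in stress libraries, against 11.30, 11.33 and 11.27 in control libraries. Every stress library was below every control library, and the difference was -0.14 ± 0.05. E2f6 (chromosome 12, 16810963 to 16839742, plus strand) had 9.0, 9.07 and 9.10 in stress libraries, against 9.21, 9.17 and 9.18 in control libraries, again apart, at -0.13 ± 0.05. E2f5 (chromosome 3, 14578641 to 14606309, plus strand), like E2f4 a partner of p130 and p107, had 8.83, 8.77 and 8.94 in stress libraries, against 8.96, 8.89 and 8.89 in control libraries. Its groups overlapped and its difference was -0.07 ± 0.06, or -0.03 without stress replicate 2, -0.12 without stress replicate 3 and -0.15 with the muscle markers in the fit. The mean of the repressors was lower in each stress library (9.65, 9.66 and 9.75) than in each control library (9.82, 9.80 and 9.78), by -0.11.

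E2f8 (chromosome 7, 48866429 to 48881596, minus strand) differed most. It had log2 values of 10.94, 11.04 and 10.87 in stress libraries, against 11.42, 11.58 and 11.50 in control libraries. The highest stress library stayed 0.38 below the lowest control library, and the means differed by -0.55 ± 0.06 (1.46-fold lower in stress). Of the 14098 genes tested, 136 had a lower difference. Leaving out each library in turn moved the E2f8 difference between -0.59 and -0.51, and with the muscle markers in the fit it was -0.46.

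E2f7 (chromosome 10, 110745439 to 110787384, plus strand), the other atypical member, had 9.15, 9.14 and 9.10 in stress libraries, against 9.26, 9.49 and 9.24 in control libraries. The groups were apart, with control replicate 2 standing highest, and the difference was -0.19 ± 0.08, or -0.11 without that library. The log2 ratio of E2f8 to E2f7 within a library, not adjusted for length, was 1.79, 1.90 and 1.77 in stress libraries, against 2.16, 2.09 and 2.27 in control libraries. The atypical pair therefore did not keep its ratio: E2f8 was lower relative to E2f7 in each stress library, by -0.35 on average. Relative to the mean of the activators, E2f8 was 2.30 ± 0.07 (SD, n = 3) in stress and 2.75 ± 0.06 in control libraries.

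Tfdp1 (chromosome 8, 13338751 to 13378448, plus strand), which encodes DP1, the partner in the E2F dimer, had 11.59, 11.56 and 11.49 in stress libraries, against 11.80, 11.75 and 11.70 in control libraries. The groups were apart and the difference was -0.20 ± 0.05. Tfdp2, which encodes the other DP protein, DP2, had 8.98, 8.81 and 9.0 in stress libraries, against 8.89, 8.98 and 8.92 in control libraries. Its groups overlapped, at a difference of 0.00 ± 0.07 (limma adjusted p = 0.993).

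Rb1 (chromosome 14, 73183673 to 73325822, minus strand), the pocket protein gene that restrains the activators, had 9.22, 9.34 and 9.23 in stress libraries, against 9.11, 9.10 and 8.89 in control libraries. It was the 1 gene of the 10 with all stress libraries above all control libraries, at 0.23 ± 0.08 (1.17-fold higher in stress). Without control replicate 3, the lowest library, the difference was 0.16. The log2 ratio of Rb1 to the mean of the activators was 0.49, 0.64 and 0.69 in stress libraries, against 0.37, 0.28 and 0.18 in control libraries. It was higher in stress by 0.33, while the activator mean itself differed by -0.10 and overlapped between the groups. The ratio of Rb1 to E2f4 was likewise higher in stress, by 0.36, and that of Rb1 to Tfdp1 by 0.43, with no overlap of the groups in either.

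**Figure D2:**
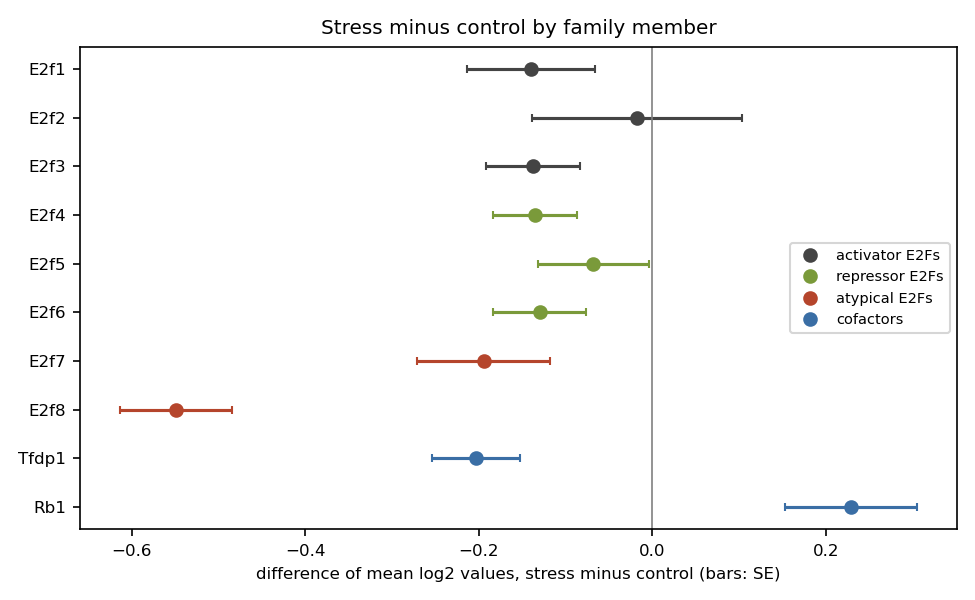
Difference of mean log2 values, stress minus control (x axis), for each of the 10 genes with its limma standard error as a bar, coloured by role; the vertical line marks 0. E2f8 lies at -0.55, Rb1 at 0.23, and the other 8 genes between -0.20 and -0.02.

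The start-site regions of the genes that set this picture were read from RefSeq (GRCm38.p6; 250 bases before to 50 after the start), which held 7 of the 10 genes and not E2f4, E2f5 and Rb1. They were searched on both strands for the E2F letters TTTCCCGC, TTTCGCGC, TTTGCCGC and TTTGGCGC, and for the cell-cycle homology region (CHR) letters TTTGAA, the element through which MuvB complexes bind late cell-cycle genes. The 2 motifs do not overlap each other in the sequences below, and capitals mark the matches, some of which read on the opposite strand. E2f8 and E2f7 are shown as the atypical pair that came apart, and E2f3 and Tfdp1 as an activator and the dimer partner with groups that did not overlap.
E2f8, chr7:48881547-48881846, minus strand: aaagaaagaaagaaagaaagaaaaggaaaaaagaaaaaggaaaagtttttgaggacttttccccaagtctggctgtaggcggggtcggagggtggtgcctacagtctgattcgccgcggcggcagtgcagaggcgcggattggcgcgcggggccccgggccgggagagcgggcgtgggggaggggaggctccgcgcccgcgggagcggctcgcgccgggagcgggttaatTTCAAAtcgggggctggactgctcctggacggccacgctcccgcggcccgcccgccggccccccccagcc
E2f7, chr10:110745189-110745488, plus strand: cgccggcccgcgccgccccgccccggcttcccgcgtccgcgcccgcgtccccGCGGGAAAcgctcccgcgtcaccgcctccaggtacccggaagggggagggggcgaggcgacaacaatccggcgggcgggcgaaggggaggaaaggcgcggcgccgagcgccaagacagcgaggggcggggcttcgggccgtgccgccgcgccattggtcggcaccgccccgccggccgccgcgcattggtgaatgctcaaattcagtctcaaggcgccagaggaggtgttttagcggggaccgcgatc
E2f3, chr13:29986014-29986313, minus strand: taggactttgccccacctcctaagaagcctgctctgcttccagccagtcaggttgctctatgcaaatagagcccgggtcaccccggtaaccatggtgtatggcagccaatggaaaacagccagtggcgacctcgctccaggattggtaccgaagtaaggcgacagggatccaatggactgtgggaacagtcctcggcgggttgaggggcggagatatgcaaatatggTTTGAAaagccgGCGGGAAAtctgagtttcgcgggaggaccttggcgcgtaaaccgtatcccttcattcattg
Tfdp1, chr8:13338501-13338800, plus strand: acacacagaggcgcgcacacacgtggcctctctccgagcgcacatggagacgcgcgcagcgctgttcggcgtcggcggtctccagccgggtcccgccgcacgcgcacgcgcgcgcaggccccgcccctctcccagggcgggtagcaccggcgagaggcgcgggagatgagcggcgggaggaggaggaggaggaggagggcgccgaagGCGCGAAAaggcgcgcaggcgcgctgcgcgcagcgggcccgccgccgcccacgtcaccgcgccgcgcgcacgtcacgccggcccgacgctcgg
The E2f8 window held a CHR match, at position -20 from the start, and no E2F match. The E2f7 window held an E2F match, at position -198, and no CHR match, so the atypical pair shared neither set of letters. The E2f3 window held both, the CHR match at -23 and the E2F match at -11, and the Tfdp1 window an E2F match at -43. In all, 4 of the 7 genes with an entry had an E2F match (E2f2, E2f3, E2f7 and Tfdp1). A CHR match was found for 3 (E2f2, E2f3 and E2f8), and some matches were in 1 of several windows. The CHR match of E2f2 was in a window inside the gene (136180532 to 136180831), and its window at the gene start (136172024 to 136172323) held none. Counted by window, 5 of their 10 windows had an E2F match and 3 a CHR match, beside 2.26% and 17.9% of all 32851 windows of the same length, and 2.79% and 15.7% of the windows of genes in the mRNA table. The 2 windows of Tfdp1 overlap and share their match. E2f1 and E2f6 had neither, which says only that these letters are not in those windows. The E2f1 window (154569377 to 154569676, minus strand) lay wholly inside the annotated gene (154559407 to 154569892). The annotated start of E2f1 was therefore not searched.

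The genes through which the family is controlled, the cyclins D, their kinases, the kinase inhibitors, the pocket proteins and DP2, did not move as a block. Of 12 tested, 0 were called, and the median difference was 0.03. At an unadjusted limma p under 0.05, 2 were higher and 2 lower, beside 8.26% and 9.15% of all genes. The groups were apart for 4 higher and 2 lower genes, beside 12.1% and 12.3%. Cdkn1b, which encodes the kinase inhibitor p27, had log2 values of 11.35, 11.42 and 11.39 in stress libraries, against 11.20, 11.20 and 11.15 in control libraries, at a difference of 0.20 ± 0.05 (limma adjusted p = 0.120). Cdk6, a kinase that phosphorylates the retinoblastoma protein, stood at 11.79, 11.57 and 11.76 in stress libraries and at 11.41, 11.53 and 11.45 in control libraries (0.24 ± 0.07, adjusted p = 0.166). Ccnd2 (-0.39 ± 0.15, adjusted p = 0.244) and Ccnd1 (-0.14 ± 0.06, adjusted p = 0.287), which encode D cyclins, were lower without overlap. The Ccnd2 difference was -0.22 without stress replicate 3 and -0.16 with the muscle markers in the fit. Cdkn2c, the gene of the inhibitor p18, was at 0.18 ± 0.10 (adjusted p = 0.383), and at 0.06 without stress replicate 3 and 0.04 with the muscle markers in the fit. The pocket protein genes Rbl1 (p107) and Rbl2 (p130) differed by -0.11 ± 0.08 and 0.10 ± 0.05, with adjusted p of 0.499 and 0.387, and only Rbl2 of these had groups that did not overlap. Cdkn2a, the p16 and p19 locus, was below the filter at a mean log2 value of 1.73.

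The genes that E2F activates at the G1 to S boundary lay lower in stress almost throughout the list. Of 40 tested, 39 had a difference below 0, beside 49.4% of all genes, and no gene was called. Stress libraries all lay below the control libraries for 31, beside 12.3% of all genes. An unadjusted limma p under 0.05 was reached by 29, all lower, beside 9.15%. The list median was -0.24. The mean log2 value of the 40 genes was 9.82, 9.83 and 9.68 in stress libraries, against 9.98, 10.08 and 9.98 in control libraries. Rrm2, a subunit of ribonucleotide reductase, had 10.23, 10.17 and 10.11 in stress libraries, against 10.59, 10.68 and 10.57 in control libraries, at -0.45 ± 0.06 (limma adjusted p = 0.0647). The replication licensing gene Cdc6 was at -0.47 ± 0.10 (adjusted p = 0.115). Ccna2 (cyclin A), Prim1 (primase) and Tyms (thymidylate synthase) were at -0.31, -0.28 and -0.33, each with an adjusted p of 0.111. These genes too were listed with earlier results of these data known.

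E2f8 is itself a G1 to S target of E2F, and its difference can be set beside theirs. None of the 40 target genes had a difference as low as that of E2f8, the lowest being Cdc6. The log2 value of E2f8 minus the mean of the 40 targets was 1.12, 1.22 and 1.20 in stress libraries, against 1.44, 1.50 and 1.53 in control libraries, so E2f8 was lower also relative to the targets, by -0.31. Of the 32 targets with a promoter entry, 15 had an E2F match in at least 1 window and 7 a CHR match. This is a count by gene, and the shares given above are by window.

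Genes of mitosis and of the MuvB complex, which pairs with p130 and E2F4 to silence and with B-MYB and FOXM1 to activate them, lay lower as well. All 12 G2/M genes tested were below 0, with 10 apart between the groups and 10 at an unadjusted p under 0.05, none called, and a median of -0.27. The shares over all genes were 49.4% below 0, 12.3% apart and lower, and 9.15% lower at an unadjusted limma p under 0.05. Plk1, a mitotic kinase, had 10.24, 10.35 and 10.13 in stress libraries, against 10.64, 10.73 and 10.69 in control libraries (-0.45 ± 0.07, limma adjusted p = 0.0769). Birc5, which encodes survivin, had 9.82, 9.96 and 9.92 in stress libraries, against 10.27, 10.22 and 10.25 in control libraries (-0.34 ± 0.05, adjusted p = 0.0947). Cdc20 (-0.30, adjusted p = 0.118), Ccnb2 (-0.23, adjusted p = 0.120) and Aurka (-0.29, adjusted p = 0.129) were also apart. Of the 11 G2/M genes with a promoter entry, 7 had a CHR match in at least 1 window and 1 an E2F match. No share by gene was computed for all genes.

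Of the 7 MuvB and MYB genes, 5 were below 0, 4 apart and 3 at an unadjusted p under 0.05, with a median of -0.15 and none called. The shares over all genes were again 49.4%, 12.3% and 9.15%. The members apart were Foxm1 (-0.32, adjusted p = 0.158), Mybl2, which encodes B-MYB (-0.24, adjusted p = 0.187), Lin9 (-0.19, adjusted p = 0.187) and Lin54, the CHR-binding subunit (-0.15, adjusted p = 0.299). Lin37, a subunit needed for repression, was at 0.08 (adjusted p = 0.620). With the muscle markers in the fit, the medians of the G1 to S, G2/M and MuvB lists were -0.16, -0.19 and -0.09, and the difference of Mybl2 was -0.14.

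**Figure D3:**
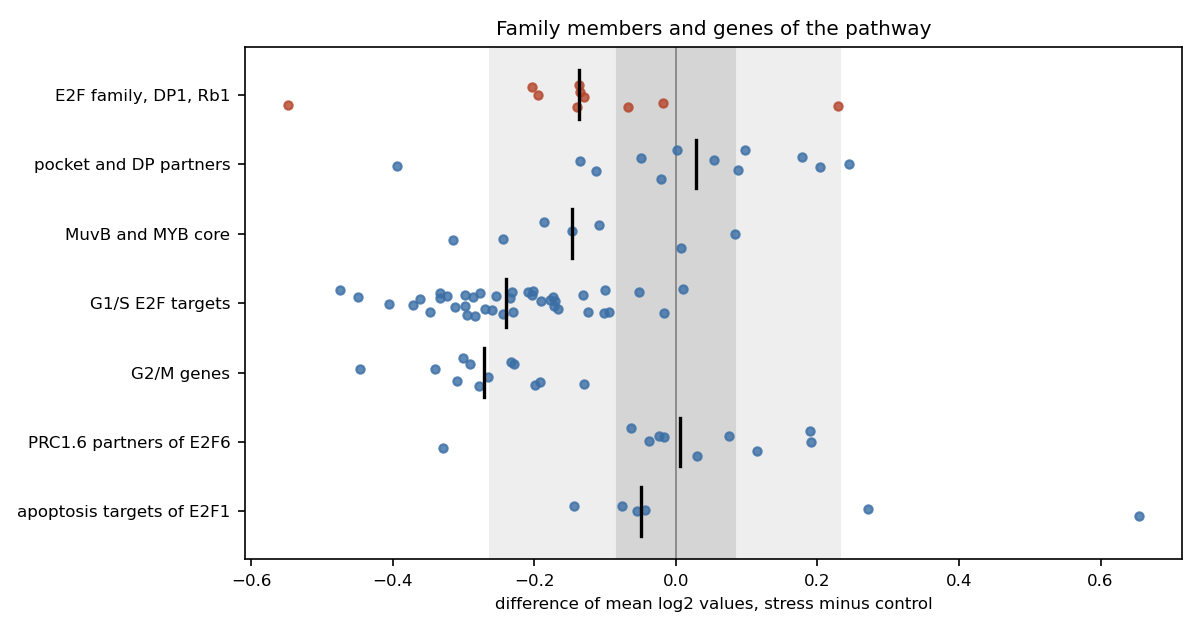
Difference of mean log2 values, stress minus control (x axis), for the 10 genes (red) and for the genes of each pathway list that passed the filter (blue), with the median of each as a black line; dark and light grey bands hold the middle 50% and 90% of all 14098 genes tested. The G1/S targets and G2/M genes lie to the left of 0 with medians of -0.24 and -0.27, while the pocket and DP partners and the PRC1.6 genes have medians of 0.03 and 0.01.

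The partners of E2F6 in the Polycomb complex PRC1.6 were balanced, with 5 of 10 above 0, 1 apart in each direction and a median of 0.01. Of all genes, 12.1% were apart and higher and 12.3% apart and lower. L3mbtl2, a reader subunit of this complex, had 7.97, 7.84 and 7.90 in stress libraries, against 8.12, 8.19 and 8.39 in control libraries (-0.33, limma adjusted p = 0.147). Max, the DNA-binding partner of MGA, had 10.75, 10.79 and 10.71 in stress libraries, against 10.61, 10.60 and 10.46 in control libraries (0.19, adjusted p = 0.178). Mga (0.19, adjusted p = 0.449), Wdr5 (-0.06, adjusted p = 0.572) and Rybp (0.07, adjusted p = 0.582) overlapped between the groups. Of 3 germline genes that E2F6 keeps silent, Smc1b and Slc25a31 were below the filter in all groups, and Stag3 passed it with a difference of 0.00 ± 0.09 (adjusted p = 0.988).

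Apoptosis genes that E2F1 can activate divided. Bcl2l11, which encodes the cell death activator BIM, had 10.94, 10.89 and 11.19 in stress libraries, against 10.50, 10.29 and 10.26 in control libraries, at 0.65 ± 0.10 (limma adjusted p = 0.0769). Bbc3, which encodes PUMA, had 6.87, 7.07 and 6.86 in stress libraries, against 6.65, 6.69 and 6.64 in control libraries (0.27, adjusted p = 0.159). Apaf1 (-0.08, adjusted p = 0.495) and Pmaip1 (-0.05, adjusted p = 0.720) overlapped. Over the 6 tested genes the median was -0.05 and the mean 0.10, so they differ in sign, and the mean rested on Bcl2l11 and Bbc3. Trp73 was below the filter.

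Across the 6 libraries, the genes most like each of the 6 family genes with a range of at least 0.3 were found by Pearson's r among 5650 genes. The 2 groups differ for many of these genes, so r in part restates the group difference, and it is a description without a test. E2f8 ran closest with Bysl (r = 0.997), which acts in ribosome assembly, and with Plk1 and the cytokinesis gene Racgap1 (both 0.993). E2f7 ran closest with Nolc1, Kcna3 and Procr (0.993, 0.992 and 0.985), and Tfdp1 with Pdap1, Mpzl2 and Sox13 (0.996, 0.993 and 0.992). Rb1 ran closest with Max (0.983), Ttc3 (0.983) and Ddr1 (0.980), and E2f2 with Csn3, Bpnt1 and AC034099.1 (0.981, 0.972 and 0.970). E2f1 ran closest with the matrix genes Thbs2 (0.994) and Itih5 (0.991) and with Bckdhb (0.987). Control replicate 2 was the highest library for E2f1 (9.44) and for these genes (13.13, 9.67 and 7.76). It was also the highest for E2f7 and the genes named with it. E2f3, E2f4, E2f5 and E2f6 had a smaller range and were not compared.

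miRNAs are tied to the E2F family in both directions. The cluster of miR-17 and miR-92a is activated by E2F1 to E2F3, and its products lower E2F1 in return, and the miR-106b-25 cluster lies in an intron of the E2F target Mcm7. The miR-34 and miR-15/16 families restrain the cell cycle, the miR-34 genes as p53 targets. The mature sequences of the miRNAs on which the results turn are shown with the seed, bases 2 to 8, in capitals (RefSeq, GRCm38.p6, which held 27 of the 28 listed; miR-34c-5p was not among them).
miR-17-5p: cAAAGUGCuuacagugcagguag
miR-20a-5p: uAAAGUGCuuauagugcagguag
miR-93-5p: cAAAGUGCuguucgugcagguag
miR-92a-3p: uAUUGCACuugucccggccug
miR-25-3p: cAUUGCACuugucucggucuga
miR-34b-5p: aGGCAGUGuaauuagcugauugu
miR-16-5p: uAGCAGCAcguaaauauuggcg
miR-195a-5p: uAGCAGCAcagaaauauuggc
miR-210-3p: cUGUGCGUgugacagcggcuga
The seed of miR-17-5p was shared by 6 listed miRNAs and that of miR-16-5p by 6, while miR-92a-3p and miR-25-3p shared another. Seed matches to the miR-17 family (GCACTTT) occurred in the annotated 3′ UTRs of 5 of the 10 genes, beside 11.7% of 20931 3′ UTRs. E2f1 had 2 sites and E2f2, E2f3, E2f5 and Rb1 had 1 each. This share and those below are over 3′ UTRs of all lengths. The 3′ UTRs of E2f3, E2f2, Rb1, E2f1 and E2f5 were longer than 89.3%, 87%, 69.6%, 53.8% and 37.4% of all. The matches are shown because the same letters stand in activators, a repressor and Rb1. Of these 5 genes, the groups were apart for E2f3, lower in stress, and for Rb1, higher in stress. They overlapped for E2f1, E2f2 and E2f5.
E2f1, first site: gggtgggctctaactGCACTTTtggtgt
E2f2: gggctcagtggggcaGCACTTTttgctt
E2f3: agacagaagacaccgGCACTTTaaactc
E2f5: gtgccttctgttttaGCACTTTaagcct
Rb1: cagtacaacccaagtGCACTTTttaatg
Matches to the miR-25 and miR-92a seed (GTGCAAT) were present in E2f3 and E2f6, beside 6.48% of 3′ UTRs, to the miR-34 seed (CACTGCC) in E2f2, E2f3 and E2f5, beside 14.1%, and to the miR-15/16 seed (TGCTGCT) in E2f3 and E2f7, beside 20% of all. E2f8 held a match only to the miR-19 seed among those searched, and E2f4 and Tfdp1 to none. A match is a description of letters and not a site shown to act.

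The miRNA libraries held 2674483, 2010794 and 1738056 counts in stress, against 2090783, 2772685 and 3202224 counts in control. edgeR's quasi-likelihood test called 0 of 462 miRNAs, with 110 at an unadjusted p under 0.05 (23.8%), 40 higher (8.66%) and 70 lower (15.2%); DESeq2 called 41. Of the 28 miRNAs tied to the family, edgeR called 0, with 2 higher and 3 lower at an unadjusted p under 0.05. Of the 28, 12 were below 0, beside 46.5% of the 462 miRNAs, and 6 were apart between the groups, 3 higher and 3 lower, beside 24.5%. DESeq2 called 4 of them, miR-25-3p, miR-34b-5p, miR-34c-5p and miR-195a-5p. The same 4 were called by edgeR with no filter on low counts, and once control replicate 1 was left out, which raised the calls over all miRNAs to 82. The labels do not say which miRNA and mRNA libraries came from 1 tumour.

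Within the miR-17 family and its clusters, miR-17-5p had 1379, 1465 and 1366 CPM (counts scaled to a common library total) in stress libraries, against 1297, 1212 and 1488 CPM in control libraries, and miR-20a-5p had 2716, 2507 and 2580 CPM, against 2244, 2261 and 2776 CPM. Both overlapped between the groups, at log2 differences of 0.06 ± 0.15 and 0.09 ± 0.17 (edgeR adjusted p = 0.837 and 0.767). miR-93-5p, of the Mcm7 cluster, had 2107, 2184 and 2101 CPM in stress libraries, against 1889, 1565 and 1758 CPM in control libraries, apart and higher at 0.29 ± 0.14 (adjusted p = 0.247). miR-25-3p, of the same cluster, had 5294, 5515 and 4863 CPM in stress libraries, against 4164, 3284 and 3459 CPM in control libraries. It was 1.43-fold higher in stress, at 0.52 ± 0.12 (edgeR adjusted p = 0.138, DESeq2 adjusted p = 0.00809, and 0.00809 to 0.369 over the alternatives). miR-92a-3p, which shares the seed of miR-25-3p but comes from the miR-17 cluster, had 3271, 3692 and 2923 CPM in stress libraries, against 3613, 3159 and 3328 CPM in control libraries, and was at -0.05 ± 0.12 (edgeR adjusted p = 0.843).

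Several miRNAs of the miR-34 and miR-15/16 families had lower values in stress. miR-34b-5p had 52.0, 53.2 and 34.5 CPM in stress libraries, against 72.7, 147 and 137 CPM in control libraries. All stress libraries were below the control libraries, of which replicate 1 was nearest, and the log2 difference was -1.39 ± 0.32 (edgeR adjusted p = 0.138, DESeq2 adjusted p = 0.00755, and 9.10e-06 to 0.369 over the alternatives). miR-34c-5p, from the same locus, had 205, 169 and 171 CPM in stress libraries, against 206, 440 and 549 CPM in control libraries, with control replicate 1 again at the stress level. It is named here with its values seen. miR-195a-5p had 54.2, 56.2 and 46.6 CPM in stress libraries, against 54.5, 182 and 143 CPM in control libraries, overlapping through control replicate 1, at -1.31 ± 0.42 (edgeR adjusted p = 0.165, DESeq2 adjusted p = 0.0475, and 0.000154 to 0.409 over the alternatives). miR-16-5p, with the same seed, had 1350, 1366 and 1387 CPM in stress libraries, against 1452, 1678 and 2193 CPM in control libraries, apart and lower at -0.39 ± 0.21 (edgeR adjusted p = 0.288), or -0.18 without control replicate 3, the highest library. miR-34a-5p, which has the same seed as miR-34b-5p, overlapped, with 355, 296 and 479 CPM in stress libraries, against 397, 322 and 377 CPM in control libraries.

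**Figure D4:**
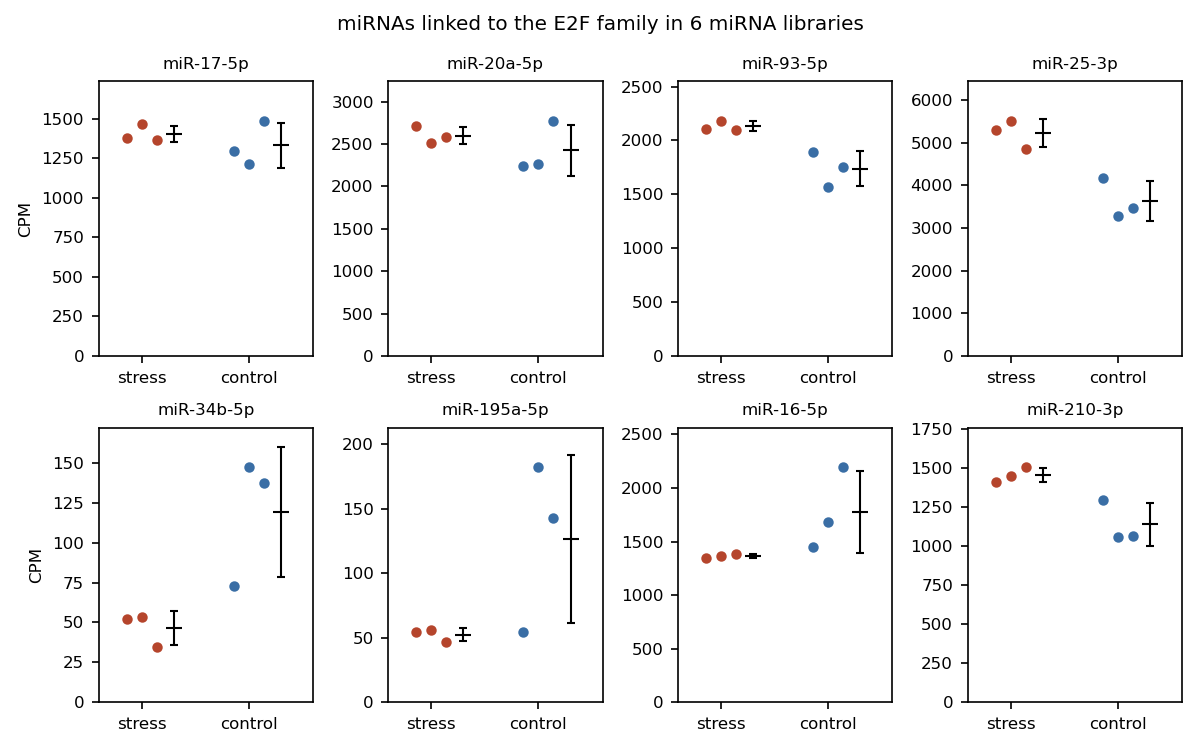
CPM (y axis, from 0) of 8 miRNAs in the 3 stress (red, left) and 3 control (blue, right) miRNA libraries, with the mean and SD as a bar at the right of each group. miR-25-3p, miR-93-5p and miR-210-3p are higher in each stress library, miR-34b-5p and miR-16-5p are lower, and control replicate 1, the first blue point, lies at 54.5 CPM beside the stress libraries for miR-195a-5p.

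Of the other miRNAs with reported E2F or Rb1 targets, miR-210-3p, induced by hypoxia, had 1416, 1452 and 1507 CPM in stress libraries, against 1298, 1060 and 1063 CPM in control libraries, apart and higher at 0.36 ± 0.15 (edgeR adjusted p = 0.209). miR-26a-5p, the most abundant at 14969 ± 1269 CPM (SD, n = 3) in stress and 14173 ± 650 CPM in control libraries, was at 0.07 ± 0.11 (adjusted p = 0.733). miR-26b-5p (0.02, adjusted p = 0.952) and miR-203-3p (0.23, adjusted p = 0.615) overlapped as well. As sums over seed families, miR-15/16 came to 1923, 1977 and 1875 CPM in stress libraries, against 2040, 2394 and 2877 CPM in control libraries, apart and lower. On average miR-16-5p made up 1367 of 1925 CPM in stress and 1774 of 2437 CPM in control. The miR-34 and miR-449 family summed to 631, 547 and 706 CPM in stress libraries, against 692, 931 and 1083 CPM in control libraries, and overlapped. The miR-17 seed family summed to 7031, 7142 and 6854 CPM in stress libraries, against 6210, 5700 and 6902 CPM in control libraries, and overlapped.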

How the data were processed

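The authors deposited 1 mRNA and 1 miRNA table, each with 3 stress and 3 control libraries of 4T1 tumours, mapped to the groups by the labels. Per the submitters' processing notes, mm10, kallisto 0.46.1 and bcl2fastq were used, with no step assigned to them. The mRNA table is named as counts, but the deposited values are normalized log2 values (22769 genes with values), and base 2 was assumed. No source used here gives the normalization. limma 3.58.1 (trend and robust; R 4.3.3) was fitted on 14098 genes with a mean of at least 4, with Benjamini-Hochberg adjustment over all of them and a threshold of 0.05. The deposited miRNA values are whole counts per precursor row. For each mature miRNA the row with the highest total was kept, and edgeR 4.0.16 (TMM, filterByExpr, quasi-likelihood) tested 462, with DESeq2 1.42.0 as an alternative. CPM were counts over the library total.

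The family genes and all lists were chosen with earlier results of these data known. Named were every family gene, up to 5 genes per list with the smallest p, the 3 genes with the highest r for each family gene with a range of at least 0.3, and listed miRNAs with a mean of at least 1000 CPM or among the 3 smallest p. Tfdp2, Rbl1, Rbl2, miR-34a-5p and miR-34c-5p were added with their values seen, and 1 gene that the rule names in the apoptosis list is not reported here. Gene positions and 3′ UTRs are from GENCODE M21 (GRCm38), and levels per kilobase used its transcript lengths. Scripts were tested on simulated data.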

Additional observations from a re-analysis of the deposited data

How the results depend on the processing

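Alternatives were quantile normalization, median centring, no filter, a fit with no variance trend and no robust estimation, a muscle marker covariate, a replicate block, leaving out each library and, for miRNAs, DESeq2, no filter and summed precursor rows. mRNA calls (3 higher, 2 lower) were 1 and 1 without the trend and robust estimation together, and 0 and 0 with the muscle covariate. After quantile normalization 5 were lower, and 1 of the 10 family genes was among the calls. The calls ranged over 0 to 4 higher and 0 to 2 lower when 1 library was left out. Same-numbered libraries, with the group means taken out, correlated at -0.08, 0.08 and -0.02 for mRNA and at -0.48, 0.32 and -0.13 for miRNA. With 3 libraries per group, these values cannot show whether the numbers pair the samples. The replicate block gave 0 and 0 mRNA calls and 0 miRNA calls. The muscle covariate set the activator mean to -0.04 and the repressor mean to -0.16, the medians of the G1/S, G2/M, PRC1.6, germline and apoptosis lists to -0.16, -0.19, -0.0192, 0.16 and -0.0137, the MuvB median to -0.09, and E2f1, E2f5, E2f8 and Ccnd2 to -0.08, -0.15, -0.46 and -0.16. Leaving out 1 library moved the medians of the pocket list between -0.00628 and 0.0620, of PRC1.6 between -0.0167 and 0.0457, and of the apoptosis list between -0.0838 and -0.0144. E2f2 was at 0.02 after quantile normalization and 0.14 with the muscle covariate, and ranged from -0.11 to 0.12 with 1 library left out. Stag3 (range -0.0738 to 0.0690) turned to -0.0626 without control replicate 1 and -0.0738 without stress replicate 2, miR-92a-3p (-0.0815 to 0.0015) to 0.0015 without control replicate 1, and miR-26b-5p (-0.0632 to 0.0998) to -0.0632 without stress replicate 3. Without control replicate 1, miR-203-3p was at 0.57. miRNA calls were 10 higher and 31 lower with DESeq2 and 18 and 51 without the filter, and 0 to 18 and 0 to 64 with 1 library left out, all of them without control replicate 1. The cause of these shifts was not tested. Depth of the mRNA libraries is unknown, and miR-34b-5p rested on 60 to 440 counts per library.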

Other observations

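Some listed miRNAs lie within protein-coding genes, whose mRNA values can be set beside theirs; these pairs were looked at with their values seen. Mcm7, a replication helicase subunit that hosts miR-93, miR-106b and miR-25, had log2 values of 11.31, 11.23 and 11.21 in stress libraries, against 11.32, 11.52 and 11.44 in control libraries, at -0.17 ± 0.06 (limma adjusted p = 0.235). miR-25-3p and miR-93-5p were at 0.52 and 0.29, so they and the host mRNA differed in opposite directions. miR-106b-5p overlapped between the groups, at 0.16 ± 0.17 (edgeR adjusted p = 0.585). In the main fits limma and edgeR called none of these, while miR-25-3p was called under the alternatives given above. Ctdsp2, a phosphatase gene that hosts 1 copy of miR-26a, had 12.54, 12.49 and 12.57 in stress libraries, against 12.33, 12.26 and 12.30 in control libraries, at 0.24 ± 0.05 (limma adjusted p = 0.114). Its paralogs Ctdspl and Ctdsp1, hosts of the other miR-26 copies, were at 0.07 and 0.01 (limma adjusted p = 0.604 and 0.933), and miR-26a-5p at 0.07. Smc4, a condensin gene that hosts miR-15b and 1 of the 2 copies of miR-16, was at -0.09 (limma adjusted p = 0.527), beside miR-15b-5p at 0.04 and miR-16-5p at -0.39.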
